A study of Mus musculus with 5 samples.

Results

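The genes described here encode the mitochondrial respiratory chain and ATP synthase. They were chosen by symbol alone: every gene whose name starts with Nduf, Uqcr, Atp5, Cox4, Cox5, Cox6, Cox7 or Cox8, together with Sdha, Sdhb, Sdhc, Sdhd, Cyc1 and Cycs. This gave 92 of the 19087 genes named on the array, on 130 array features, and 88 of them were bright enough to be tested. The study measured RNA of mouse fetal liver pro-B cells after deletion of Ebf1, a transcription factor of the B lineage, on 1-colour Agilent arrays. The 2 control arrays (control 3 and control 6) were from Ebf+/fl cells, in which 1 allele is floxed and which the labels describe as having lost that allele. The 3 deleted arrays (deleted 4, deleted 5 and deleted 7) were from Ebf fl/fl cells, described as having lost both alleles. All 5 samples were cultures of liver cells from 16.5 dpc embryos (days post coitum) grown on OP-9 cells, a mouse bone marrow stromal line, with interleukin-7. All of them were treated with 4-hydroxy-tamoxifen for 24 hours (at 2 mM, per the labels), which activates an ER-Cre fusion protein, and were harvested 4 days later. The comparison is therefore between loss of both alleles and loss of 1 allele, with Cre and tamoxifen in every sample. The titles carry a first number that is 111 for both controls and 93 for all deleted samples, so the genotype and whatever that number stands for cannot be told apart. Nothing in the labels ties each sample to an embryo of its own, so p-values measure only the spread between these samples, which may be technical.

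The respiratory chain lies in the inner mitochondrial membrane. Complex I (the Nduf genes) and complex II (the Sdh genes) pass electrons from NADH and succinate to coenzyme Q, complex III (the Uqcr genes and Cyc1) passes them on to cytochrome c (Cycs), and complex IV (most Cox genes here) passes them to oxygen. Complexes I, III and IV pump protons across the membrane, and complex V, the ATP synthase (the Atp5 genes), uses their return to make ATP. Most subunits are encoded in the nucleus, and several subunits of complex IV have a widely used form and a form restricted to tissues such as heart and skeletal muscle. NRF1 and GABP (an ETS factor) are known to bind promoters of many of these genes.

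RefSeq promoter windows (build GRCm38.p6, 250 bases before to 30 after the transcript start) were matched by gene ID for 76 of the 92 genes, in 81 windows. They were searched on both strands for exact letters of 4 motifs: TCCCNNGGGA for EBF, which reads the same on both strands, GCGCATG for the core of the NRF1 site, CCGGAAG for the ETS core bound by GABP, and AAGATGGC for YY1. The NRF1 core was in 15 of the 81 windows (18.5%), against 3.71% of all 32851 windows in the table. The ETS core was in 18 windows (22.2% against 8.45%) and the YY1 core in 4 (4.94% against 2.29%). The EBF letters were in 1 window (1.23% against 0.868%), that of Cycs. The median GC content was 57.9% in the windows of the respiratory chain genes and 52.5% in all windows. A match is a description of letters and not of binding, and a window without a match says only that these letters are not in it. The windows of 5 genes are shown 5′ to 3′ on the gene's strand, with matches in capitals. Cox7a1 and Ndufaf3 are shown because they were the genes called changed, Cox7a2 as the widely used form beside Cox7a1, Cox6a1 because its call depended on the scaling, and Cycs because it holds the EBF letters.
Cox7a1, chr7:30183921-30184200, plus strand: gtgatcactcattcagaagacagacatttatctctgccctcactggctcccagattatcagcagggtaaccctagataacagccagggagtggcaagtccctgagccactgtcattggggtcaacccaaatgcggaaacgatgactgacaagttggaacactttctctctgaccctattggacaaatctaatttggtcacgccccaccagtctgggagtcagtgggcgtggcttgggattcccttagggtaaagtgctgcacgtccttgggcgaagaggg
Cox7a2, chr9:79759824-79760103, minus strand: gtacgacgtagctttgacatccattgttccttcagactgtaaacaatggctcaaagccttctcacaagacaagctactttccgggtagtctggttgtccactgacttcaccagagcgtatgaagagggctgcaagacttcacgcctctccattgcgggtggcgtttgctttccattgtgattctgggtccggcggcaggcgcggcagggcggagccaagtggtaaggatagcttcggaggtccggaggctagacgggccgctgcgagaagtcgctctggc
Ndufaf3, chr9:108567407-108567686, minus strand: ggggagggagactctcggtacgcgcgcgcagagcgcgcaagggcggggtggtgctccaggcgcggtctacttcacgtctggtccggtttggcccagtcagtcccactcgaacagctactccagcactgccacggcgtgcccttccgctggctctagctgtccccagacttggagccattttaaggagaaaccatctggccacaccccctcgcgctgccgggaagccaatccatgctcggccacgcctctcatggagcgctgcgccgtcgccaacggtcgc
Cox6a1, chr5:115348929-115349208, minus strand: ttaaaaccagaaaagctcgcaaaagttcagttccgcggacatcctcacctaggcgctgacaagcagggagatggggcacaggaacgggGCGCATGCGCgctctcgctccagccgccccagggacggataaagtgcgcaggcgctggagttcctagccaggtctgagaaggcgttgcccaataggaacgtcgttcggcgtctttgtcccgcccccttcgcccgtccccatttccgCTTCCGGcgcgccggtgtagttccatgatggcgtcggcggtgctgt
Cycs, chr6:50566540-50566819, minus strand: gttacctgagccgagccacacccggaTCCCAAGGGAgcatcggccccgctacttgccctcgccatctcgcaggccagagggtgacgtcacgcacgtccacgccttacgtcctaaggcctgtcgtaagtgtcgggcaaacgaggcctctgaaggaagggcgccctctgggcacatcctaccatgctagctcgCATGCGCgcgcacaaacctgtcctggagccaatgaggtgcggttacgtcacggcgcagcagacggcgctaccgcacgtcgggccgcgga
In the Cox6a1 window the first run of capitals is a pair of overlapping NRF1 cores on opposite strands, starting at positions -162 and -159 from the transcript start, and the last is an ETS core at position -16. In the Cycs window the EBF letters start at position -224 and an NRF1 core at position -59. The windows of Cox7a1, Cox7a2 and Ndufaf3 held none of the 4 motifs.

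The samples were checked for Ebf1 and for cell type markers. Of 3 Ebf1 features, the one for transcript AK036716 was 3.02 log2 units lower in deleted cells (SE 0.35, adjusted p = 0.0037), and those for NM_007897 (log2 fold change -0.25, adjusted p = 0.317) and AK042875 (0.44, adjusted p = 0.270) were not called. Where these features lie relative to the floxed part is not known here, so a feature that was not called does not check the deletion. All 11 pro-B cell markers measured were above the array's 40th percentile on every array, and 7 of them were lower in deleted cells (4 to 6 when any 1 array was left out). Their summed intensity, as a multiple of the array's 75th percentile, was 1721 to 1863 in controls and 739 to 950 in deleted cells. Sums of 9 myeloid markers were 31.5 to 37.3 in controls and 59.6 to 73.7 in deleted cells. Most of each sum was Ctss. Its log2 level relative to that percentile was 4.42 and 4.71 in controls and 6.13, 6.02 and 5.81 in deleted cells. Of 6 tested, 1 was higher (Ctss, by 1.43 log2 units) and 1 was lower (Itgam, log2 fold change -2.09, adjusted p = 0.0490). The median was -0.32 and 4 of the 6 changes were negative, so the rise of the sum does not describe the list. Sums of 25 cell cycle genes were 240 to 433 and 114 to 205. Sums of adipocyte markers were 0.334 to 0.370 and 0.620 to 0.742, those of stromal markers 11.1 to 11.9 and 11.2 to 16.7, and those of erythroid markers 0.303 to 0.335 and 0.280 to 0.338. Of 9 stromal markers tested 1 was higher and none lower (11.1% called, against 17.3% of all genes tested). Their median log2 fold change was 0.57, with 7 positive and 2 negative. The higher one was Sparc, by 1.63 log2 units, and its other feature was 2.38 higher. Sums of T and NK cell markers were 5.11 to 6.89 and 7.47 to 8.89, and of 8 tested 2 were higher (Cd3g and Klrd1) and 2 lower (Klrb1c and Nkg7, with log2 fold changes of -3.11 and -2.91). The part of these differences in the results below was not tested.

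Few of the respiratory chain genes differed between the groups past the threshold. Of the 88 tested, Cox7a1, the muscle and heart form of a complex IV subunit, and Ndufaf3, a complex I assembly factor, were lower in deleted cells. None was called higher and 86 were not called at an adjusted p threshold of 0.05 in limma, and 17 of the 88 had an unadjusted p under 0.05, as had 4487 of all 13419 genes tested. The called share was 2.27%, against 17.3% of all 13419 genes tested, of which 8.74% were lower and 8.58% higher. Higher genes made up 49.5% of all calls, and 38.6% without scaling between arrays. The respiratory chain genes are mostly bright, so the same counts were made among genes with a mean level above the array's 75th percentile, a choice made after seeing the data. Of 83 respiratory chain genes there, 1 was called, against 18.1% of all such genes. The intervals bound most of the changes. For 78 of 88 genes (88.6%) the 95% interval of the fold change lay within 2-fold in either direction, against 50.7% of all genes tested, and among the brighter genes the shares were 90.4% and 72.1%. For 29 of 88 it lay within 1.5-fold. A missed threshold does not show that a gene was equal in both groups. In bulk RNA, fewer cells of a type and less RNA per cell cannot be told apart.

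**Figure D1:**
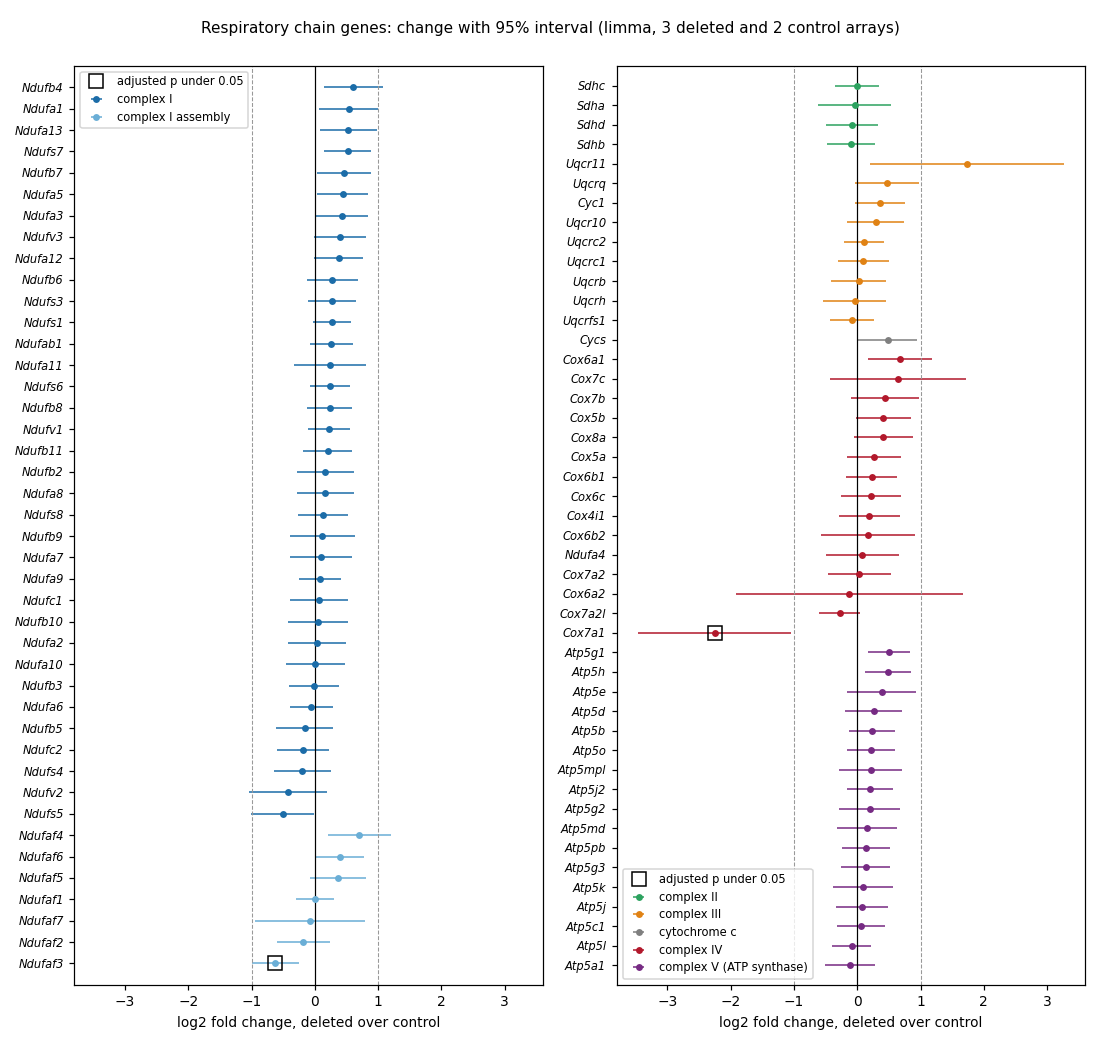
Log2 fold change, deleted over control, of the 88 respiratory chain genes tested, with 95% intervals from limma (3 deleted and 2 control arrays) and colours for the complexes. Squares mark Ndufaf3 and Cox7a1, the genes with an adjusted p under 0.05, and dashed lines mark 2-fold changes.

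The middle of the group lay close to that of all genes. The median log2 fold change was 0.18 (67 positive and 21 negative), beside 0.096 for all genes tested, and 77 of the 88 changes were under 0.5 in size. On 34 genes every deleted array was above both controls and on 5 every deleted array was below them, where 30.5% and 21.2% of all genes did so. The 34 are a somewhat larger share than among all genes, and the 5 a smaller one. The counts moved with the scaling: 17 above and 9 below without scaling, 41 and 4 with the array median, 35 and 8 after quantile normalization. The shares of all genes under those scalings are not given here. Neither difference from the share of all genes was tested, and nothing is read from these counts. The median of all genes moved with the scaling, from -0.036 with unscaled intensities to 0.15 with scaling by the array median. The respiratory chain median stood 0.087 above it with the 75th percentile, a distance that does not depend on a scaling by 1 constant per array, and 0.049 above it after quantile normalization. Both are smaller than the within-group SD of the array medians (0.145, with the 75th percentile). That SD is of single arrays and includes shifts shared by all genes, so it does not give the error of these distances.

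**Figure D2:**
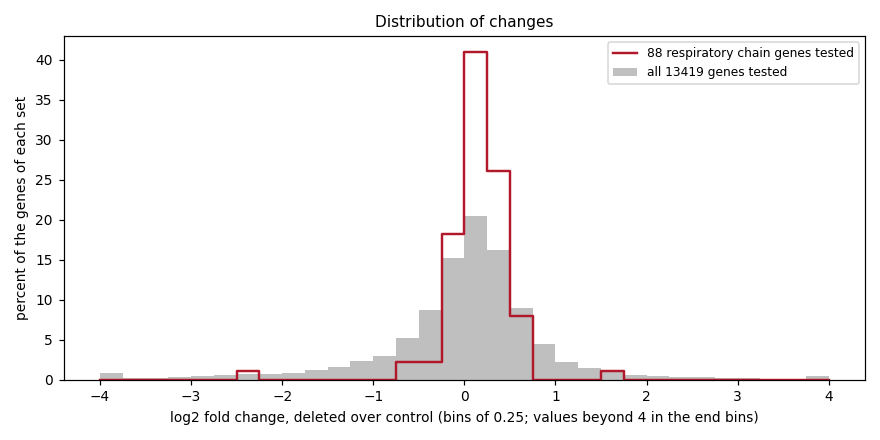
Percent of genes in each bin of log2 fold change (bins of 0.25), for the 88 respiratory chain genes tested (red line) and all 13419 genes tested (grey bars). The respiratory chain genes lie in a narrower band around a median of 0.18, and Cox7a1 is the gene in the bin near -2.25.

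Complex IV held the tested gene with the largest change, Cox7a1. Cox7a1 read 1.93 and 0.17 on controls 3 and 6, and -1.63, -1.04 and -0.94 on deleted 4, 5 and 7, in log2 intensity relative to the array's 75th percentile. The groups did not overlap, but the controls were 1.76 apart. The mean fell from 1.05 ± 1.25 (SD, n = 2) to -1.20 ± 0.37 (SD, n = 3), so that Cox7a1 was 4.76-fold lower (log2 fold change -2.25, SE 0.50, adjusted p = 0.0291). The size depended on the controls: it was -1.37 without control 3 (adjusted p = 0.0865) and -3.13 without control 6 (adjusted p = 0.00855). The call was also lost without deleted 4 (adjusted p = 0.0587) and without deleted 5 (adjusted p = 0.0844), and without an intensity trend in the variance (adjusted p = 0.0623). Cox7a1 is also used in brown fat. Of 5 adipocyte markers tested none was lower and 2 were higher, Adipoq by 2.80 log2 units and Lpl by at least 4.85-fold (1 of the 2 calls was lost without control 3). These markers were dim, with sums of at most 0.742 of the array's 75th percentile. Whether such cells have a part in the Cox7a1 values was not tested.

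None of the widely used forms of complex IV subunits was called. Cox7a2, the widely used form of the same subunit, read 4.67 and 4.75 in controls and 4.44, 5.10 and 4.69 in deleted cells, with overlapping groups and a log2 fold change of 0.03 (95% interval -0.47 to 0.53). Cox7a2l, a related protein that joins complexes III and IV into supercomplexes, read 5.60 and 5.54, then 5.18, 5.38 and 5.32. All its deleted arrays were lower, by 0.28 in the mean (SE 0.14), but the change was not called (adjusted p = 0.213). Log2 fold changes of the 11 widely used forms were all positive, from 0.03 to 0.67. That sign depended on the scaling, with 11 positive after scaling by the array median, 10 after quantile normalization and 9 without scaling.

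Cox6a1, the widely used form of subunit VIa, had the largest change of these. It read 6.90 and 6.94 in controls and 7.45, 7.94 and 7.38 in deleted cells. Every deleted array was above both controls, with deleted 5 highest. The deleted arrays were 0.56 apart, against 0.04 for the controls. The log2 fold change was 0.67 (SE 0.21) and was not called (adjusted p = 0.0736). Under the other scalings it was called: 0.54 without scaling (adjusted p = 0.0275), 0.73 with the array median (adjusted p = 0.0406) and 0.77 after quantile normalization (adjusted p = 0.0117). Its muscle form, Cox6a2, read 1.26 and -1.44 in controls and -0.79, 0.30 and -0.15 in deleted cells. The controls of Cox6a2 spanned the deleted arrays, so its log2 fold change of -0.12 carried a wide interval, from -1.92 to 1.67, and was 1.23 without control 3 and -1.48 without control 6.

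The other pairs of widely used and restricted forms were not called. Cox6b1 had a log2 fold change of 0.23 (adjusted p = 0.397), and its testis form Cox6b2 0.17 (adjusted p = 0.742). Cox4i1 had 0.19 (adjusted p = 0.557), Cox8a 0.42 (adjusted p = 0.188) and Ndufa4, a complex IV subunit despite its name, 0.08 (adjusted p = 0.850). The restricted forms Cox4i2, Cox7b2 and Cox8b lay at or below the 40th percentile on every array and were not tested. Cox8c was above it on deleted 7 alone and was not tested either. Cox7c rested on 1 array: it read 1.36 and 1.32 in controls, 1.40 and 1.59 on deleted 4 and 7, and 2.96 on deleted 5 (log2 fold change 0.64, adjusted p = 0.371).

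**Figure D3:**
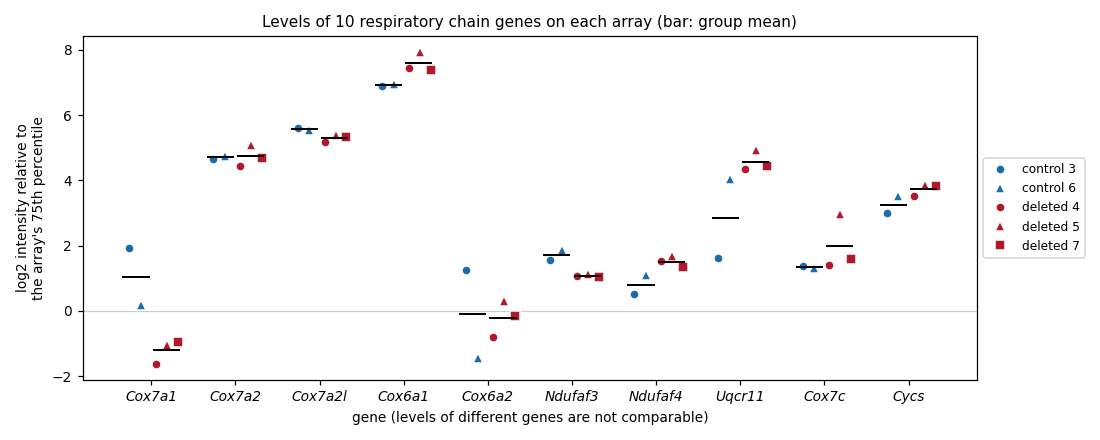
Log2 intensity relative to the array's 75th percentile for 10 respiratory chain genes, with 1 point per array (blue, 2 controls; red, 3 deleted) and bars at group means. Cox7a1 and Ndufaf3 are lower on every deleted array, while Uqcr11 and Cox7c each have 1 array far from the others (control 3 at 1.63 and deleted 5 at 2.96).

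Ndufaf3 acts early in the building of complex I, together with Ndufaf4. Ndufaf3 read 1.55 and 1.86 in controls and 1.08, 1.13 and 1.03 in deleted cells. The deleted arrays lay close together and all below the controls, and Ndufaf3 was 1.54-fold lower (log2 fold change -0.62, SE 0.15, adjusted p = 0.0388). The call was at the edge of the threshold. It was lost when any 1 array was left out (adjusted p from 0.0744 without deleted 5 to 0.161 without control 6), without scaling (adjusted p = 0.0680), with the array median (adjusted p = 0.0552) and without an intensity trend (adjusted p = 0.0754). The value of its partner Ndufaf4 had the other sign. Ndufaf4 read 0.52 and 1.09 in controls and 1.51, 1.68 and 1.34 in deleted cells. Its change of 0.71 (log2 scale, SE 0.21) was not called (adjusted p = 0.0661). It was 0.24 with the mean of its features (adjusted p = 0.480), 0.42 without control 3 and 0.99 without control 6. That mean took in a feature too dim to be tested (-0.52), while the tested features had 0.71 and 0.54. Whether the partners differ from each other was not tested.

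The other 5 assembly factors named Ndufaf were not called. Ndufaf1, which helps build the membrane arm, varied least between arrays: it read 1.90 and 1.89 in controls and 1.91, 1.91 and 1.90 in deleted cells (log2 fold change 0.01, 95% interval -0.30 to 0.31; -0.12 to 0.06 under the other scalings). Ndufaf6 had 0.39 (adjusted p = 0.138), and Ndufaf7, which methylates a core subunit, spread over more than 1 log2 unit among the deleted arrays (-1.91, -2.50 and -1.28).

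None of the 35 complex I subunits was called. Their median log2 fold change was 0.20, and they ran from -0.51 for Ndufs5 to 0.61 for Ndufb4. For 31 of the 35 the interval lay within 2-fold. The 6 core subunits, which carry the flavin and the iron-sulfur clusters, had a median of 0.24 and the 29 accessory subunits 0.17. Ndufs7, the core subunit that holds the last iron-sulfur cluster before coenzyme Q, read 4.00 and 4.14 in controls and 4.56, 4.78 and 4.44 in deleted cells. Its groups were apart, and the log2 fold change of 0.52 (SE 0.15) was not called (adjusted p = 0.0644) but was called with the array median (adjusted p = 0.0377) and after quantile normalization (adjusted p = 0.0419). Ndufb4, an accessory subunit of the membrane arm, read 3.67 and 3.85, then 4.17, 4.69 and 4.23 (adjusted p = 0.0785). Ndufa13, also known as Grim19, read 6.35 and 6.37, then 6.80, 7.18 and 6.68 (log2 fold change 0.53, adjusted p = 0.105). On all 3 genes every deleted array was above the controls and deleted 5 was highest. Ndufs5, an accessory subunit on the intermembrane side, went the other way, with 6.36 and 6.32 in controls and 5.49, 6.12 and 5.88 in deleted cells (adjusted p = 0.142). Ndufs7 and Ndufs5 were picked out after their values were seen.

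None of the 4 complex II genes was called. On the feature that stood for each gene, the changes were at most 0.10 in size on the log2 scale. Sdha, the flavoprotein that oxidises succinate, had -0.04 (95% interval -0.62 to 0.54). Its other features had 0.47 and 1.13, and the last was called higher with every feature fitted as its own row (adjusted p = 0.0384). Sdhb, the iron-sulfur subunit, had -0.10 (-0.48 to 0.28), and the membrane anchors Sdhc and Sdhd had -0.002 (-0.35 to 0.34) and -0.08 (-0.49 to 0.33). On the features that stood for the genes, the groups overlapped for all 4. All 4 values were negative here, and 2 of the 4 were positive after scaling by the array median.

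Of the 9 complex III genes none was called, and the median log2 fold change was 0.11. Uqcr11, a small subunit, had the largest value, 1.74 (SE 0.64, adjusted p = 0.112), and it rested on 1 control. It read 1.63 on control 3 but 4.04 on control 6, and 4.35, 4.93 and 4.43 in deleted cells. Without control 3 the change was 0.53 and not called (adjusted p = 0.360), and without control 6 it was 2.94 (adjusted p = 0.00599). Cyc1, the cytochrome of the complex, read 3.87 and 4.28, then 4.52, 4.36 and 4.44 (log2 fold change 0.37, adjusted p = 0.177; 0.16 without control 3 and 0.57 without control 6), and Uqcrh, the hinge subunit, had -0.04 (adjusted p = 0.918). The groups of Uqcrh overlapped.

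Cytochrome c itself, Cycs, read 3.00 and 3.51 in controls and 3.53, 3.85 and 3.82 in deleted cells. The lowest deleted array lay just above the higher control, and the log2 fold change of 0.48 (SE 0.20) was not called (adjusted p = 0.145). It was 0.22 without control 3 and 0.74 without control 6, and called in neither. Cycs had 3 features, whose log2 fold changes were 0.48, 0.54 and 0.61, none of them called.

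None of the 17 ATP synthase genes was called. Their log2 fold changes ran from -0.12 for Atp5a1 to 0.50 for Atp5g1, with a median of 0.19. For all 17 the interval lay within 2-fold. Atp5g1, Atp5g2 and Atp5g3 are separate genes for the same mature protein, the subunit of the rotating c ring. Atp5g1 read 2.40 and 2.49 in controls and 2.85, 3.08 and 2.89 in deleted cells. Every deleted array was higher, by 0.50 in the mean (SE 0.14), and the adjusted p of 0.0545 missed the threshold, which it passed with the array median (0.0340), after quantile normalization (0.0489) and with a stricter filter on dim genes (0.0456). Atp5g2 (log2 fold change 0.19, adjusted p = 0.548) and Atp5g3 (0.14, adjusted p = 0.610) had overlapping groups. Atp5b, the catalytic subunit of the F1 head, read 6.51 and 6.50, then 6.61, 6.85 and 6.76 (log2 fold change 0.23, adjusted p = 0.326). Atp5h, a subunit of the peripheral stalk picked out after its values were seen, had 0.48 (adjusted p = 0.0753) and was called with the array median (adjusted p = 0.0393) and after quantile normalization (adjusted p = 0.0355).

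The deleted arrays differed among themselves in their respiratory chain levels, and deleted 5 stood highest. Relative to each gene's control mean, the median over the 88 genes was -0.003 on deleted 4, 0.39 on deleted 5 and 0.14 on deleted 7, and -0.013 and 0.013 on the controls. Deleted 5 was the highest of the 5 arrays for 62 of the 88 genes. It was also the array with the lowest 75th percentile, an intensity of 306 against 389 to 430 on the other 4. Without scaling, deleted 5 was highest for 7 genes and deleted 7 for 58, and the array medians were -0.068, -0.024 and 0.22 on deleted 4, 5 and 7. The rank of the deleted arrays thus depended on the scaling, whose part in it was not tested further. Deleted 4 stayed within 0.07 of the control mean under all 4 scalings. Without deleted 5 the median log2 fold change was 0.097, and without deleted 4 it was 0.26. With the 75th percentile, the 25 cell cycle genes followed another order than the respiratory chain genes. Their medians were -2.76, -1.61 and -0.80 on deleted 4, 5 and 7, and 0.49 and -0.49 on controls 3 and 6. The unscaled respiratory chain medians above rose in that same order, from deleted 4 to 5 to 7. Whether the cell cycle and respiratory chain genes moved together was not tested.

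**Figure D4:**
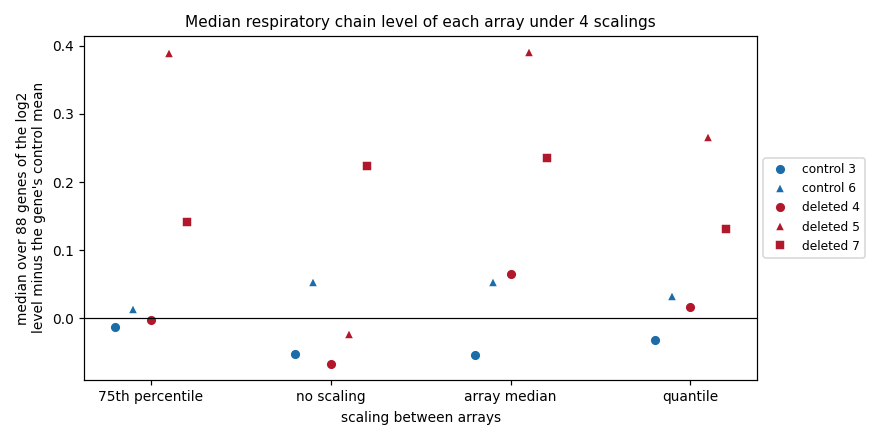
Median over the 88 tested genes of the log2 level minus the gene's control mean, for each array under 4 ways of scaling arrays to each other. Deleted 5 stands at 0.39 under the 75th percentile and at -0.024 without scaling, while deleted 4 stays near the controls.

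With every array feature fitted as its own row, 12.8% of 28007 features were called, and of 122 tested features of the respiratory chain genes 1 was lower (Cox7a1, adjusted p = 0.0325) and 1 higher. The higher one was a feature of Sdha. It is annotated to transcript AK005350 and read -2.03 and -1.60 in controls and -0.29, -0.96 and -0.80 in deleted cells (log2 fold change 1.13, adjusted p = 0.0384). The 2 features of Sdha annotated to NM_023281 had -0.04 and 0.47 and were not called, so the features of Sdha disagree. Their mean gave 0.52 (adjusted p = 0.112). Ndufaf3 had an adjusted p of 0.0502 in this fit. Of 24 genes with several tested features, 7 had features of opposite sign: Atp5a1, Atp5pb, Ndufab1, Ndufc1, Ndufv2, Ndufv3 and Sdha. Apart from Sdha none of these features was called.

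Genes that serve the chain were described by the same counts, beside the 17.3% of all 13419 genes tested that were called. No list was tested against that share. Of 24 regulators of mitochondrial biogenesis, 4 were higher and 1 lower (20.8% called, median log2 fold change -0.01). Ppargc1b, the coactivator PGC-1β, read -1.79 and -1.87 in controls and 0.70, 0.21 and 0.01 in deleted cells. The groups were far apart, by 2.14 log2 units in the mean (SE 0.24, adjusted p = 0.0032), and all 3 of its features were called, at 2.14 to 2.28. Its relative Pprc1 read -0.57 and -0.01, then 1.63, 1.89 and 1.17 (1.85, adjusted p = 0.00709). Gabpb1, the partner of the DNA-binding GABP subunit, fell from 0.82 and 0.74 to -0.40, -0.28 and -0.01 (-1.01, adjusted p = 0.0139), a call lost without control 3 (adjusted p = 0.0899). Calls of Ppargc1b and Pprc1 held when any 1 array was left out. Among regulators picked out after their values were seen, Nrf1 (-0.06, adjusted p = 0.873), Gabpa (0.02, adjusted p = 0.940) and Tfam (-0.16, adjusted p = 0.629), a packaging factor of mitochondrial DNA, were not called.

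Of 13 genes for other electron inputs, none was higher and 2 were lower (15.4% called, against 17.3% of all genes tested). Prodh, which feeds electrons from proline into the chain, read 2.57 and 2.16 in controls and 0.41, 0.70 and 0.58 in deleted cells. Its groups did not overlap, the log2 fold change was -1.80 (SE 0.18, adjusted p = 0.00235), and the call held when any 1 array was left out. Nnt, which uses the proton gradient to make NADPH, read 4.08 and 3.79, then 2.79, 3.06 and 2.75 (-1.07, adjusted p = 0.00899). Its 4 features ranged from -1.25 to -1.07, and without control 3 Nnt was no longer called (adjusted p = 0.0690). Of 9 ATP and proton carriers 1 was higher and 1 lower (22.2% called). Atpif1, the inhibitor of ATP hydrolysis by complex V, read 6.00 and 5.76, then 4.12, 4.71 and 4.90 (-1.30, adjusted p = 0.0175). That call was lost without control 3 (adjusted p = 0.117), without control 6 (adjusted p = 0.0515) and without deleted 5 (adjusted p = 0.0515). Slc25a13, an aspartate and glutamate carrier, was 1.38 higher (adjusted p = 0.0276) and lost its call when any 1 array other than deleted 4 was left out (adjusted p from 0.0573 without deleted 7 to 0.106 without control 6).

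**Figure D5:**
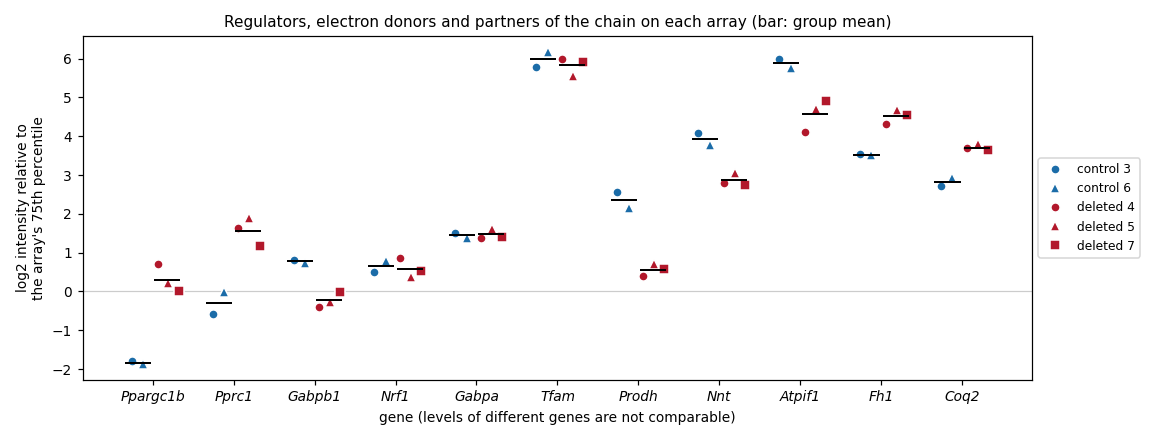
Log2 intensity relative to the array's 75th percentile for 11 genes that serve the respiratory chain, with 1 point per array (blue, 2 controls; red, 3 deleted) and bars at group means. Ppargc1b and Pprc1 are higher and Prodh, Nnt and Atpif1 lower on every deleted array, while Nrf1, Gabpa and Tfam overlap.

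Of 16 genes of coenzyme Q and heme synthesis 3 were higher and 2 lower (31.25% called, against 17.3% of all genes tested). The larger changes were in Coq2, which joins the tail to the coenzyme Q ring (0.89, adjusted p = 0.00865), and in the ring-modifying enzymes Coq7 (-0.74, adjusted p = 0.0444) and Coq5 (0.73, adjusted p = 0.0253), so genes of 1 pathway moved both ways. The call of Coq2 was lost without control 3 (adjusted p = 0.0722), that of Coq5 without control 3, control 6 or deleted 4 (0.147, 0.0694 and 0.0772) and that of Coq7 when any 1 array was left out (0.0552 to 0.253). Of 18 genes of the tricarboxylic acid cycle 1 was higher and 1 lower (11.1% called). Fh1, the fumarase that follows complex II in the cycle, read 3.53 and 3.53 in controls and 4.32, 4.68 and 4.56 in deleted cells (0.99, adjusted p = 0.00924; 0.0678 without control 3). Idh2, the mitochondrial isocitrate dehydrogenase that uses NADP, fell by 0.83 (adjusted p = 0.0232), a call lost without control 3, control 6 or deleted 4 (0.109, 0.0882 and 0.0551).

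For complex I, 2 of 11 assembly factors outside the Nduf names were called, both higher (18.2%, against 17.3% of all genes tested). They were Tmem126a (0.69, adjusted p = 0.0418) and Ecsit (0.68, adjusted p = 0.0403), which works with Ndufaf1 in building the membrane arm. Tmem126a lost its call when any 1 array was left out (adjusted p from 0.0531 to 0.219), and Ecsit when any 1 array other than deleted 7 was left out (0.0592 to 0.189). Of 38 assembly factors of complexes II to V, 5 were called (13.2%). These were Coa7, Lrpprc and Cox18, all higher, Cmc1, lower, and Coa6, whose direction is not settled. The list had no call without scaling, without an intensity trend or without control 3. Coa7 (0.88, adjusted p = 0.0295) lost its call without control 3, deleted 5 or deleted 7 (0.174, 0.0752 and 0.0593), and Cmc1 (-0.78, adjusted p = 0.0448) when any 1 array was left out (0.0680 to 0.248). Coa6, needed for copper delivery to complex IV, was called higher by the feature that stood for it, but its features opposed each other. The one for NM_174987 had 0.83 (adjusted p = 0.0362 in the fit of all features) and the one for AK007939 -3.00 (adjusted p = 0.000586), so no direction is given for the gene. Of the subunits encoded in mitochondrial DNA, 2 were on features with a gene name, ND4L (0.48) and COX2 (0.22), and neither was called.

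Other large housekeeping assemblies were set beside the chain by the same counts. Of 78 mitochondrial ribosomal protein genes 5 were higher and none lower (6.41% called), with a median log2 fold change of 0.25. The larger of these were Mrps6 (0.83, adjusted p = 0.0181), Mrps24 (0.77, adjusted p = 0.0436) and Mrpl38 (0.70, adjusted p = 0.0383), whose calls were lost without control 3 (adjusted p = 0.0716, 0.253 and 0.223) and without control 6 (0.0832, 0.0645 and 0.0525), and those of Mrps24 and Mrpl38 also without deleted 4 (0.0883 and 0.107) and without deleted 5 (0.0873 and 0.0942). Of 75 cytosolic ribosomal protein genes 1 was higher and 1 lower (2.67% called, median 0.26). The calls were Rpl39l (4.54), whose other feature had 0.90 and was not called, and Rpl3l (-7.47). Of the 75 changes 65 were under 0.5 in size, so these calls do not describe the set. Of 48 proteasome genes 1 was higher (Psmg1, 0.68) and 2 were lower (Psma8, -3.50, and Psmb9, -0.68), with 6.25% called and a median of 0.09. For the respiratory chain the counts were none higher and 2 lower of 88 (2.27% called, against 17.3% of all genes tested). No difference between the sets was tested. When any 1 array was left out, the calls numbered 0 to 3 for the respiratory chain, 0 to 4 for the mitochondrial ribosome, 2 in each case for the cytosolic ribosome, 0 to 1 for the proteasome and 2 to 6 for the biogenesis regulators.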

How the data were processed

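The authors deposited 1 linear intensity per array feature for 5 samples, and the submitters' processing notes name Agilent Feature Extraction. Its version, background handling and spot flags: not given in the sources used here. Per the labels, 0.2 µg of RNA entered labelling with Cy3, primed with oligo dT. Of 45018 features, 33653 had 1 gene symbol, 56 had several and 11309 had none.

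The deposited intensities were put on a log2 scale, less the 75th percentile of the same array. Each gene took its feature with the highest mean over the 5 arrays, and 13419 of 19087 genes were tested, those above the 40th percentile on 2 or more arrays. The test was limma's moderated test (version 3.58.1, R 4.3.3), two-sided, with a variance trend on intensity (eBayes) and p-values adjusted by Benjamini-Hochberg over all genes tested. A second fit took all features as rows. A group with no array above the 40th percentile took that percentile as its limit ("at least N-fold"). The fit was also run on simulated data drawn from its own variance model, with larger changes than most seen here. That run does not show how often small changes are found. The number of arrays limits the precision.

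The genes and lists were chosen with earlier results of these data known. Named were genes past the threshold, the brightest and most changed of each complex, paralogues, the Sdh genes, Cyc1 and Cycs, up to 3 called genes per list, genes with disagreeing features, and Ebf1. Other scalings, feature rules, filters and variance models, and leaving out each array, were tried. Probe positions were not used.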

Additional observations from a re-analysis of the deposited data

How the results depend on the processing

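The count of respiratory chain genes called higher was 0, and became 1 without scaling, 4 with scaling by the array median, 5 after quantile normalization, 1 with every feature as a row, 1 with the filter at the 60th percentile, and 0 to 2 when 1 array was left out. The count called lower was 2, and became 1 without scaling, 1 with the array median, 1 with every feature as a row, 1 without a filter, 0 without an intensity trend, and 0 to 1 when 1 array was left out. The cause was not tested; with 1 array fewer, fewer samples enter the fit. The median log2 fold change stayed within 0.051 to 0.26 over all alternatives, closer to the main value than the spread of array medians within groups (SD 0.145). Coa6 reversed from 0.83 to -3.03 after quantile normalization and to -1.09 with the mean of its features, and ran from -3.07 to 0.92 when 1 array was left out, since another of its features then stood for the gene or joined the mean. Over all genes tested 2324 were called, against 702 without control 3, 1444 without control 6, 1415 without deleted 4 and 1276 without deleted 5, and 3587 of the features in the fit of all features. The share of higher calls was 49.5%, against 38.6% without scaling, 56.4% with the array median and 49.2% after quantile normalization. Robust empirical Bayes and array weights left the calls of Cox7a1 and Ndufaf3 in place. No paired analysis was possible because the groups share no replicate numbers. With 2 controls, 1 deviating control can set a value, as for Uqcr11.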
